A study of Danio rerio with 6 samples.

Results

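Goosecoid (gsc, ENSDARG00000059073), mixl1 (ENSDARG00000069252), noto (ENSDARG00000021201) and dusp4 (ENSDARG00000044688) are genes of the dorsal organizer and the blastoderm margin of the zebrafish embryo. They were chosen by name, with no threshold on a measured value, and are 4 of the 32266 genes with a value in every library. The first 3 encode homeodomain transcription factors, whereas dusp4 encodes a phosphatase and is not a homeobox gene, although it is grouped with them here. All 4 genes were among the 15720 that passed the filter on low counts.

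Bulk RNA-seq was performed on whole zebrafish embryos of the Tubingen (TU) strain at 50% epiboly, the onset of gastrulation, in 3 WT and 3 MZsmad4a libraries of 25 pooled embryos each. WT embryos of the same strain served as controls. MZsmad4a embryos lacked both the maternal and the zygotic contribution of Smad4a and came from homozygous mothers and homozygous fathers, and the smad4a allele is a small CRISPR/Cas9 deletion in the linker region that shifts the reading frame and introduces an early stop codon. The deletion is too small to remove the reads of the gene, so smad4a RNA does not test the allele itself, but its level separated the labelled genotypes: it was 54.7, 62.3 and 60.8 CPM (read counts of a gene scaled to a common library size) in WT replicates 1, 2 and 3 and 13.1, 15.3 and 14.6 CPM in MZsmad4a replicates 1, 2 and 3. The libraries held between 9807865 (WT replicate 1) and 20833491 (WT replicate 2) read counts assigned to genes. The study speaks of biological replicates and of different embryo clutches. Because whole embryos were pooled, fewer cells expressing a gene and less RNA per expressing cell cannot be told apart in any value given here.

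Nodal ligands act at the margin of the fish blastoderm through phosphorylated Smad2, which binds DNA with partners such as Foxh1, and Smad4 is the common partner of the receptor-activated Smads of both the Nodal and the BMP pathways. On the dorsal side, Nodal together with maternal Wnt signaling sets up the organizer (the shield in zebrafish), which forms the prechordal plate and the notochord, whereas BMP signaling and its targets promote ventral fates and restrict organizer genes. gsc is a transcriptional repressor and the classical marker of the organizer and prechordal plate. mixl1 is a Mix-type activator downstream of Nodal that takes part in endoderm formation, noto (known in zebrafish as floating head) is needed to make notochord, and dusp4 dephosphorylates MAP kinases such as ERK, the kinase that FGF activates at the margin.

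All 4 genes were expressed in every library, and the question put to them was whether their levels depend on Smad4a. The clearest separation between genotypes was found for noto, which was lower in each MZsmad4a library than in any WT library, at 0.700 of the WT level. gsc and mixl1 had lower means in MZsmad4a embryos, at 0.765 and 0.652 of WT, with overlapping genotypes and with the lowest level in MZsmad4a replicate 1. dusp4 had nearly the same mean in both genotypes. None of the 4 passed an adjusted p of 0.01 in edgeR's quasi-likelihood test, a threshold that 112 genes (0.712% of those tested) passed, 77 of them lower (0.49%) and 35 higher (0.223%) in MZsmad4a embryos, and 2750 genes had an unadjusted p under 0.05 in the same test. DESeq2's Wald test called none of the 4 at this threshold either, and 2.63% of the 24983 genes it tested. Shares of all genes given for DESeq2 are over these 24983, which include genes that did not pass the filter on low counts.

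The organizer repressor gsc had 31.5, 35.5 and 35.0 CPM in WT replicates 1, 2 and 3, and 14.1, 31.7 and 32.2 CPM in MZsmad4a replicates 1, 2 and 3. The WT libraries lay close together, MZsmad4a replicates 2 and 3 were just above the lowest WT library, and MZsmad4a replicate 1 stood apart at 44.0% of the mean of the other mutant libraries. On average WT embryos had 34.0 ± 2.18 CPM and mutant embryos 26.0 ± 10.3 CPM (SD, n = 3 libraries). The log2 fold change was -0.39 (standard error 0.29, 95% interval -1.05 to 0.27, edgeR adjusted p = 0.554), and without MZsmad4a replicate 1 it was -0.09 (edgeR adjusted p = 0.812). The interval spans a level from 0.484 to 1.21 of WT, so any gsc level within that range is compatible with these libraries. An exact permutation test of the log2 CPM values (two-sided, 3 against 3) gave p = 0.3, where 0.1 is the smallest this design allows.

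The spread of gsc differed between the genotypes in these libraries. The SD of log2 CPM was 0.09 in WT, smaller than that of most genes with a mean of at least 10 CPM (23.8% of 7835 such genes had a smaller SD), and 0.68 in MZsmad4a embryos, where 97.4% of those genes had a smaller SD. The gsc values rest on 244 to 744 counts per library, with a relative counting error of 3.67% to 6.40%. Of the 7835 genes, 0.587% were further down than gsc in MZsmad4a replicate 1 relative to the other mutant libraries.

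mixl1, the Nodal-induced activator, had 56.3, 96.6 and 68.8 CPM in WT replicates 1, 2 and 3. In MZsmad4a replicates 1, 2 and 3 it had 28.9, 55.6 and 60.3 CPM. WT replicate 2 was the highest library and MZsmad4a replicate 1 the lowest, at 49.8% of the mean of MZsmad4a replicates 2 and 3, and the genotypes overlapped because WT replicate 1 lay below MZsmad4a replicate 3. On average WT embryos had 73.9 ± 20.7 CPM and mutant embryos 48.2 ± 16.9 CPM (SD, n = 3 libraries). The log2 fold change was -0.62 (standard error 0.29, 95% interval -1.29 to 0.06, edgeR adjusted p = 0.329). It was -0.35 without MZsmad4a replicate 1 and -0.37 without WT replicate 2, so each of these libraries alone carried a large part of the difference. The exact permutation test gave p = 0.2. mixl1 was the most variable of the 4 genes over all 6 libraries, with a highest level 3.35 times its lowest.

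noto, the notochord gene, had 36.8, 42.9 and 35.2 CPM in WT replicates 1, 2 and 3, and 24.2, 29.2 and 27.1 CPM in MZsmad4a replicates 1, 2 and 3. The lowest WT library was thus above the highest MZsmad4a library, and of the 4 genes noto was the only one whose genotypes did not overlap on this scale. Of all genes tested, 11.9% were likewise lower in MZsmad4a embryos without overlap and 11.8% were higher, so 1 of 4 genes without overlap is not by itself unusual. The means were 38.3 ± 4.04 CPM and 26.8 ± 2.50 CPM (SD, n = 3 libraries). The log2 fold change was -0.51 (standard error 0.14), and its 95% interval, -0.83 to -0.20, lay below 0, as did the interval of 8.81% of all genes tested.

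The difference in noto did not pass the threshold after adjustment over all genes (edgeR unadjusted p = 0.00573, adjusted p = 0.102), and its p was the 886th smallest. The noto difference shifted less than those of gsc and mixl1 when single libraries were left out, and lay between -0.58 and -0.42. In MZsmad4a replicate 1, noto was at 85.9% of its mean in the other mutant libraries. Its SD of log2 CPM, 0.15 in WT and 0.14 in MZsmad4a embryos, was close to the median of genes with at least 10 CPM (0.16 and 0.15). Adjusted p was 0.037 in DESeq2's Wald test and 0.0393 in limma on log2(TPM + 1), both below 0.05 and above 0.01. The exact permutation test gave p = 0.1, the smallest it can give.

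dusp4, the ERK phosphatase, had 36.9, 61.8 and 38.4 CPM in WT replicates 1, 2 and 3, and 31.9, 42.9 and 56.0 CPM in MZsmad4a replicates 1, 2 and 3. WT replicate 2 was the highest library, followed by MZsmad4a replicate 3, and the genotypes overlapped over most of their range. The means were 45.7 ± 14.0 CPM and 43.6 ± 12.1 CPM (SD, n = 3 libraries), and the log2 fold change was -0.07 (standard error 0.26, 95% interval -0.67 to 0.52, edgeR adjusted p = 0.926). The interval covers levels from 0.631 to 1.44 of WT, so any dusp4 level within that range is compatible with these libraries. The sign was not determined by these data, since the log2 fold change was 0.21 without WT replicate 2 and 0.11 without MZsmad4a replicate 1.

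**Figure D1:**
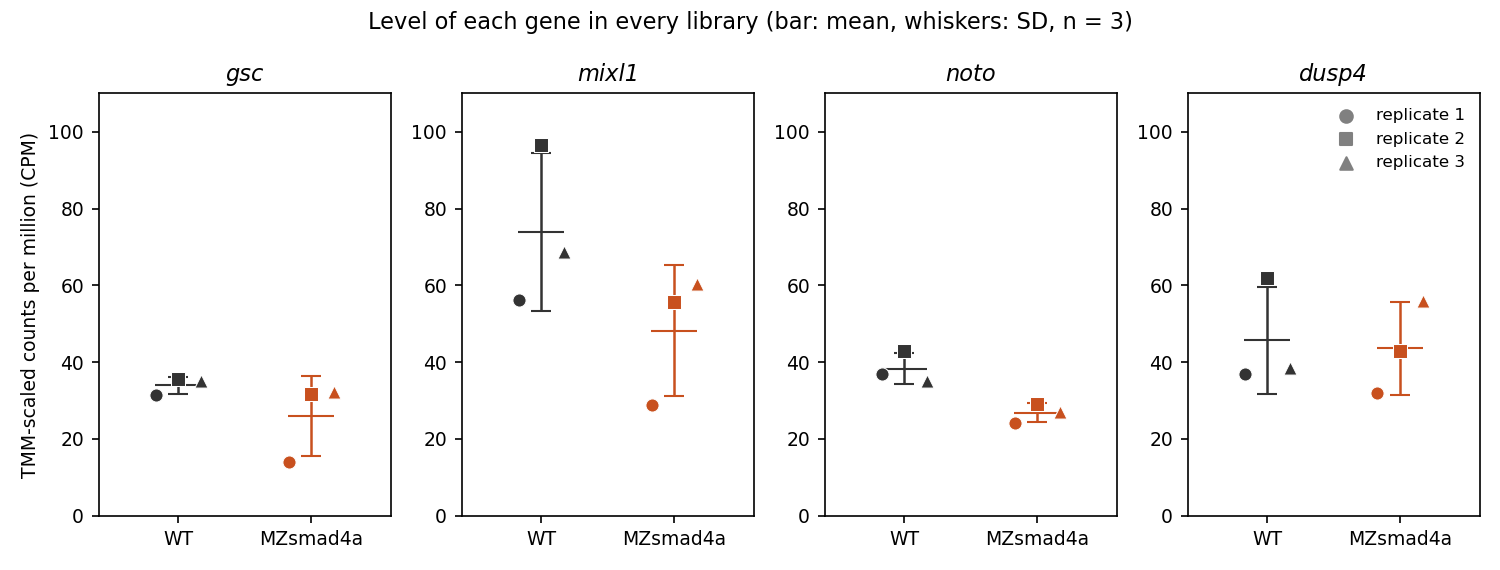
Level of gsc, mixl1, noto and dusp4 in each library, in TMM-scaled CPM, with the mean (horizontal bar) and SD (whiskers) of 3 libraries per genotype and a marker shape for each replicate number. The noto libraries do not overlap between WT (35.2 to 42.9 CPM) and MZsmad4a (24.2 to 29.2 CPM), while gsc and mixl1 have their lowest value in MZsmad4a replicate 1 (14.1 and 28.9 CPM).

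**Figure D2:**
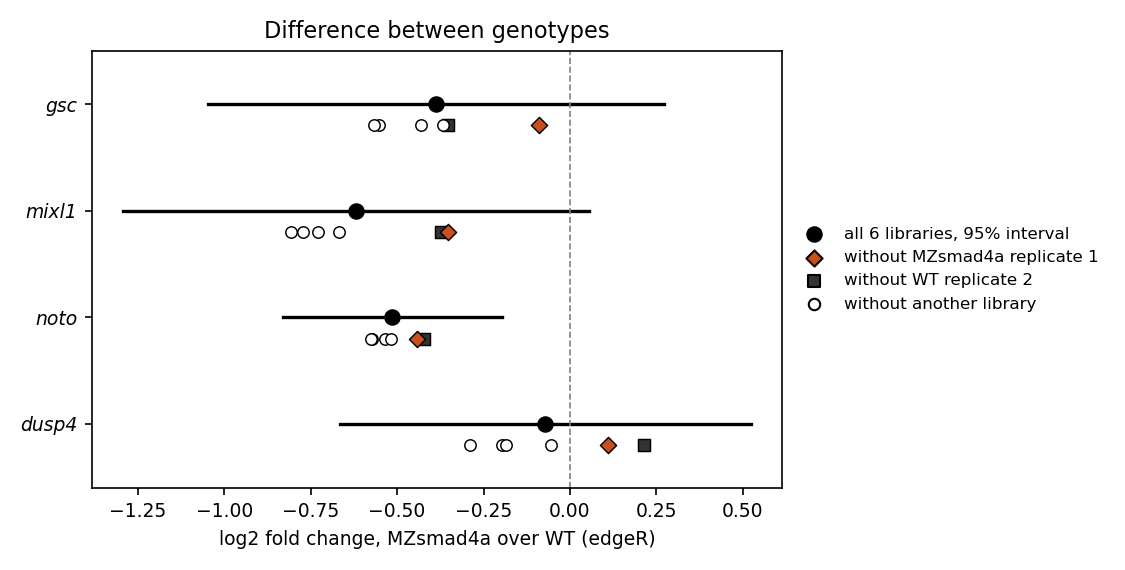
Log2 fold change of MZsmad4a over WT for each gene, with all 6 libraries (black point, line: 95% interval) and after removal of each single library (small markers below). The 95% interval of noto (-0.83 to -0.20) lies below 0, the value of gsc moves from -0.39 to -0.09 without MZsmad4a replicate 1, and that of dusp4 lies on either side of 0 depending on the library left out.

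Whether gsc and mixl1 overlapped between genotypes depended on the scale. After TMM scaling the lowest WT value of gsc was 31.5 CPM and the highest MZsmad4a value 32.2 CPM. With CPM scaled by library size alone the same values were 34.1 and 30.9 CPM, and in TPM (which also corrects for transcript length) 53.98 and 49.6, so on both of these scales all WT libraries were above all MZsmad4a libraries. mixl1 behaved in the same way, with a lowest WT value of 61.0 CPM against a highest MZsmad4a value of 57.6 CPM by library size, and 42.66 against 39.22 TPM. These scales also shift the whole transcriptome: the median log2 fold change of all genes tested was -0.01 with TMM, -0.11 by library size alone and -0.09 in limma on log2(TPM + 1), and the genes that were lower without overlap rose from 11.9% to 18.4% by library size and 17.5% in TPM, and were 11.7% with RLE scaling. noto did not overlap and dusp4 overlapped on each of the scales, RLE scaling included.

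Compared per length, noto had the highest level of the 4 genes in each library, with 85.48, 92.09 and 78.6 TPM in WT replicates 1, 2 and 3 and 50.09, 62.34 and 55.99 TPM in MZsmad4a replicates 1, 2 and 3. In WT embryos the mean levels in TPM were 85.4 ± 6.75 for noto, 55.7 ± 1.62 for gsc, 53.3 ± 12.9 for mixl1 and 49.6 ± 13.3 for dusp4 (SD, n = 3), and the latter 3 lay within their spread of each other. In MZsmad4a embryos the order of the means was noto (56.1 ± 6.13), dusp4 (44.2 ± 12.0), gsc (39.9 ± 16.1) and mixl1 (32.2 ± 11.3), again with overlapping spreads below noto, and in replicate 3 noto (55.99) and dusp4 (55.98) were level. mixl1 was the lowest of the 4 genes in each of the 3 MZsmad4a libraries and in none of the WT libraries.

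To ask whether the balance among the 4 genes differed between genotypes, their TPM ratios were taken within each library, which removes the scaling of the library. The ratio of mixl1 to dusp4 was the only one of 6 without overlap: its log2 value was 0.02, 0.06 and 0.26 in WT replicates 1, 2 and 3 and -0.75, -0.22 and -0.51 in MZsmad4a replicates 1, 2 and 3. The mean difference was -0.60, with an exact permutation p = 0.1, the smallest possible with 3 against 3, and a Benjamini-Hochberg adjusted p = 0.6 over the 6 ratios. The log2 ratio of gsc to noto differed by 0.02 (exact p = 1), although it was -1.23 in MZsmad4a replicate 1 and between -0.72 and -0.20 in the other 5 libraries. The remaining differences were 0.19 for gsc to mixl1, -0.41 for gsc to dusp4, -0.17 for mixl1 to noto and -0.44 for noto to dusp4, with exact p from 0.2 to 0.6, so no ratio was shown to differ between genotypes.

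In TMM-scaled CPM the 4 genes shared their extreme libraries. Each of them was highest in WT replicate 2 and lowest in MZsmad4a replicate 1, as were 4.57% of the 7835 genes with a mean of at least 10 CPM. The highest library of gsc depended on the scale. It was WT replicate 3 in TPM (57.16, against 56.1 in WT replicate 2) and by library size alone (35.9 against 35.8 CPM). Relative to the mean of its genotype, mixl1 was 0.42 and dusp4 0.48 log2 units higher in WT replicate 2, where gsc was 0.06 and noto 0.17 higher. In MZsmad4a replicate 1, gsc was 0.78 and mixl1 0.67 log2 units below the mutant mean, dusp4 0.41 and noto 0.14 below. All 4 genes were below the WT mean in WT replicate 1, the library with the fewest counts, and above the mutant mean in MZsmad4a replicates 2 and 3.

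**Figure D3:**
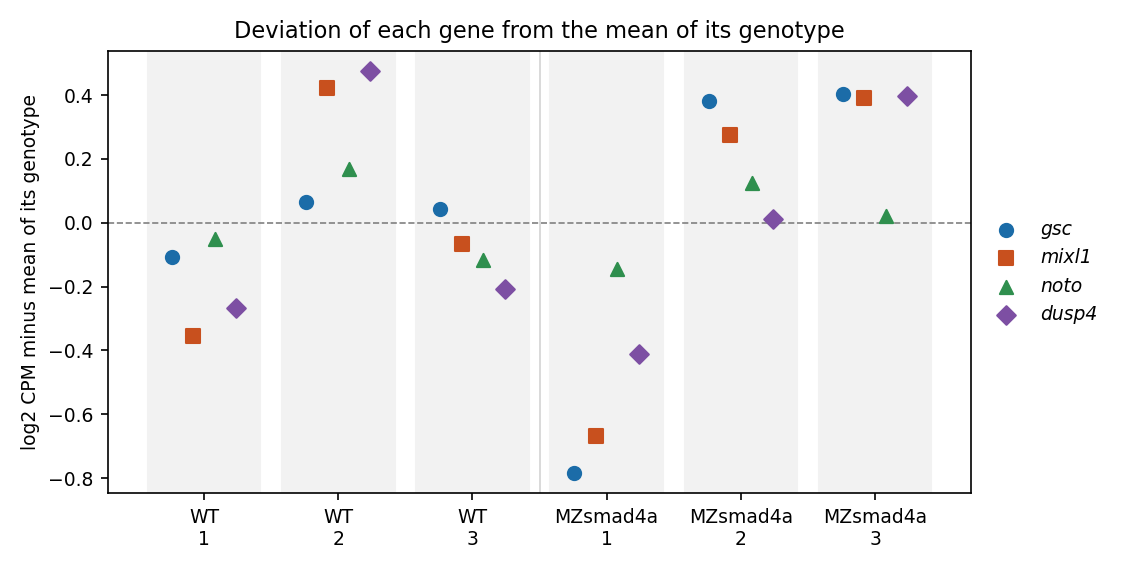
Deviation of log2 CPM from the mean of the genotype for gsc, mixl1, noto and dusp4 in each of the 6 libraries (dashed line: no deviation). All 4 genes lie above the line in WT replicate 2 and below it in MZsmad4a replicate 1, where gsc and mixl1 are 0.78 and 0.67 below.

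Across the 6 libraries, gsc and mixl1 had the highest coefficient of log2 CPM among the 6 pairs compared, Pearson's r = 0.913 (exact permutation p = 0.00278, Benjamini-Hochberg adjusted p = 0.0167) and Spearman's rho = 0.943 (exact p = 0.0167, adjusted p = 0.1). The relation was r = 0.894 without MZsmad4a replicate 1, r = 0.980 without the 2 libraries farthest from the median (MZsmad4a replicate 1 and WT replicate 2), and r = 0.883 after the mean of each genotype was removed. Within a genotype there were only 3 libraries, too few for a coefficient of its own. The exact p re-paired libraries across genotypes, so a genotype difference shared by both genes can by itself lower it. No p was computed with the genotype means removed.

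The other pairs did not pass 0.05 after adjustment on this scale. For mixl1 and noto r was 0.840 (exact p = 0.0306, adjusted p = 0.0917; rho = 0.714, exact p = 0.136, adjusted p = 0.204), and for mixl1 and dusp4 it was 0.772 (exact p = 0.0486, adjusted p = 0.0972), with the same rho, 0.714. For gsc and noto r was 0.703 (exact p = 0.0694, adjusted p = 0.104; rho = 0.6, exact p = 0.242, adjusted p = 0.29), and for gsc and dusp4 it was 0.628 (exact p = 0.151, adjusted p = 0.182; rho = 0.829, exact p = 0.0583, adjusted p = 0.175). noto and dusp4 had the lowest coefficient (r = 0.419, exact p = 0.392; rho = 0.429, exact p = 0.419, both the same after adjustment). All 5 coefficients were lower without the 2 outermost libraries (MZsmad4a replicate 1 and WT replicate 2). Without them r was 0.247 for mixl1 and noto, -0.0772 for mixl1 and dusp4 and 0.303 for gsc and noto. It was -0.205 for gsc and dusp4 and -0.914 for noto and dusp4. Removing the extremes narrows the range and can by itself lower r, so these values do not show what the relations rest on. Without MZsmad4a replicate 1 alone, r in the same order was 0.736, 0.638, 0.643, 0.371 and 0.0673. Leaving out WT replicate 2 alone turned noto and dusp4 to r = -0.0695 and left the other pairs of these 5 at 0.597 to 0.718. With all 6 libraries and the genotype means removed, the order of the pairs was another one: r was 0.917 for mixl1 and dusp4, above the 0.883 of gsc and mixl1, then 0.837 for mixl1 and noto, 0.804 for noto and dusp4, 0.679 for gsc and dusp4 and 0.654 for gsc and noto.

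MZsmad4a replicate 1, which held the lowest level of each of the 4 genes, differed from the other mutant libraries in further ways. Summed CPM of 5 yolk syncytial layer genes was 666 in this library and 373 and 323 in MZsmad4a replicates 2 and 3. In WT it was 409 to 435. That of 8 enveloping layer genes was 6188, against 5454 and 5144 in the other mutant libraries and 4719 to 5362 in WT. Most of the enveloping layer sum came from krt4 and krt5, at 2917 and 1442 CPM in MZsmad4a replicate 1. In MZsmad4a replicates 1, 2 and 3 the lipoprotein genes were at 109, 46.9 and 20.9 CPM (apoa1a), 145, 58.1 and 38.0 CPM (apoa1b) and 103, 51.0 and 24.0 CPM (apobb.1). mxtx2, a regulator of the yolk syncytial layer, was near the detection limit in these libraries, at 0.115, 0.331 and 0.473 CPM, and at 1.41 to 3.15 CPM in WT. All 7 maternal transcripts tested and 5 of 6 germ cell genes had their lowest mutant level in MZsmad4a replicate 1. So did only 3 of 8 enveloping layer genes and 1 of 5 yolk syncytial layer genes. The share was 36.6% of the 7835 genes with a mean of at least 10 CPM. The maternal zar1 and buc and the germ cell gene dazl were below that level, so the shares are not over like sets. The margin could be small, with zar1 at 6.35, 6.57 and 6.68 CPM in MZsmad4a replicates 1, 2 and 3. No gene of these 4 lists was at 0 in every library, and no gene of them passed the threshold between genotypes in edgeR. DESeq2 called 1 of 8 enveloping layer genes higher (315 of 24983 over all genes) and 1 of 5 yolk syncytial layer genes lower (1.37% over all genes). The part of these differences in the levels of gsc, mixl1, noto and dusp4 was not tested.

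Genes of later gastrula mesoderm, which read out developmental progress, also differed in level: their summed CPM was 599.8 to 650.5 in WT and 351 to 433 in MZsmad4a libraries, with 8 of 9 log2 fold changes below 0 and a median of -0.66. DESeq2 called 2 of the 9, both lower, against 1.37% of all genes. None of the 9 passed the threshold in edgeR. msgn1, a regulator of presomitic mesoderm, was the nearest to it (log2 fold change -1.20, edgeR adjusted p = 0.0105). Stage and genotype cannot be told apart for these values.

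The other genes of the organizer and axial mesoderm, from a list of known members, had no call in edgeR among the 15 tested, against 0.49% of all genes called lower. Of the 15, 10 had a log2 fold change below 0, with a median of -0.21 against -0.01 over all genes tested, and 7 were lower and 1 higher without overlap, against 11.9% and 11.8% of all genes. twist2, a basic helix-loop-helix gene of axial mesoderm, had the smallest p at a low level, with 2.36, 1.57 and 0.928 CPM in WT and 0.0577, 0 and 0 CPM in MZsmad4a libraries. Its edgeR adjusted p was 0.0106 and its DESeq2 adjusted p 0.000166, and no fold is given because 2 mutant libraries were at 0 and the other was below the 3-count limit. The secreted Wnt antagonist frzb was next, with 34.6, 31.3 and 30.2 CPM in WT and 13.8, 18.4 and 14.9 CPM in MZsmad4a libraries (log2 fold change -1.02, edgeR adjusted p = 0.0152). tbxta, which is required for notochord and tail, also did not overlap (574 ± 69.9 against 387 ± 54.7 CPM, SD, n = 3; log2 fold change -0.57, edgeR adjusted p = 0.0646), close in size to noto. The BMP antagonist chrd, the main secreted product of the organizer, had 298 ± 30.8 CPM in WT against 257 ± 26.6 CPM in mutant embryos (SD, n = 3; log2 fold change -0.21, edgeR adjusted p = 0.364), with overlap. The axial signal shha was low, at 6.23 to 8.26 CPM in WT and 1.42 to 3.52 CPM in MZsmad4a libraries (log2 fold change -1.54, edgeR adjusted p = 0.054). DESeq2's Wald test called 4 of the 15, all lower, where it called 1.37% of the 24983 genes it tested lower. The 15 had all passed the filter on low counts, which those 24983 had not, so the shares are not over like sets.

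Of 7 tested Nodal ligands, co-receptor and transducer genes none passed the threshold, with a median log2 fold change of -0.03. The ligand gene ndr1 (squint) was at 1.79 to 2.40 CPM in WT and 1.85 to 4.47 CPM in MZsmad4a libraries, and ndr2 (cyclops) at 6.28 to 8.97 CPM and 4.04 to 7.78 CPM, each with overlap. foxh1, the DNA-binding partner of Smad2, had 337 ± 15.0 CPM in WT against 279 ± 37.6 CPM in mutant embryos, without overlap (SD, n = 3; log2 fold change -0.27, edgeR adjusted p = 0.247). The Nodal inhibitor lft2 had 11.2 to 13.9 CPM in WT and 5.52 to 7.07 CPM in MZsmad4a libraries (log2 fold change -0.99, edgeR adjusted p = 0.0299), and lft1 had 26.1 to 33.5 and 25.8 to 42.2 CPM with overlap. Neither inhibitor passed 0.01 in edgeR, while DESeq2 called lft2 (adjusted p = 0.000481).

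Other genes that Nodal induces at the margin and in mesendoderm had no call in edgeR among 13 tested, while 10 had a log2 fold change below 0, with a median of -0.47, and 9 were lower and 1 higher without overlap, against 11.9% and 11.8% of all genes. DESeq2 called 2 of them, both lower, against 1.37% of all genes. The T-box gene tbx16, needed for trunk mesoderm, had 565 ± 37.8 CPM in WT against 367 ± 73.5 CPM in mutant embryos (SD, n = 3; log2 fold change -0.62, edgeR adjusted p = 0.0646), the same log2 fold change as mixl1 with a narrower spread. The endoderm gene sox17 had 10.4 to 12.9 CPM in WT and 1.21 to 3.76 CPM in MZsmad4a libraries (log2 fold change -2.19, edgeR adjusted p = 0.0204). sebox, a paired-type homeobox gene related to mixl1, had 18.7, 49.6 and 28.4 CPM in WT replicates 1, 2 and 3 and 11.5, 41.9 and 54.3 CPM in MZsmad4a replicates 1, 2 and 3, and so had the same order as mixl1 within each genotype, with a log2 fold change of 0.15 (95% interval -1.08 to 1.38). After the genotype means were removed its deviations correlated with those of mixl1 at r = 0.996 over the 6 libraries, given as a description of libraries that share their embryos and depth.

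Of 6 other paired-like homeobox genes tested, DESeq2 called 1 lower and 1 higher, against 1.37% of all genes lower and 315 of 24983 higher. The log2 fold change of mxtx2 was the lowest and is not given, because its level in MZsmad4a replicate 1 was below the 3-count limit. None of the 6 passed the threshold in edgeR, and the highest log2 fold change was 1.08 (otx1). otx2a, a forebrain and anterior gene, was the nearest, with 52.6 to 62.8 CPM in WT and 91.1 to 121 CPM in MZsmad4a libraries (log2 fold change 0.92, edgeR adjusted p = 0.0123), in the direction opposite to noto. For dusp4, the related gene set was FGF and ERK feedback, in which none of 13 passed the threshold in edgeR and 11 had log2 fold changes below 0, with a median of -0.24. DESeq2 called 1 of the 13, higher, where it called 315 of 24983 genes higher. Another ERK phosphatase gene, dusp6, had 212 to 243 CPM in WT and 157 to 203 CPM in MZsmad4a libraries without overlap (log2 fold change -0.28, edgeR adjusted p = 0.265). The ligand gene fgf3 had 8.39 to 14.2 CPM in WT and 20.8 to 28.4 CPM in MZsmad4a libraries (log2 fold change 1.07, edgeR adjusted p = 0.0577). None of 6 MAP kinase phosphatase genes other than dusp4 passed the threshold.

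Genes on the opposing, ventral side were the only list with calls in edgeR among the lists examined: 4 of 10 tested were called lower, szl, eve1, bmp4 and ved, against 0.49% of all genes, with a median log2 fold change over the list of -1.13. Of the 10, 8 were below 0. A wnt8a gene was higher without overlap, at 33.2 to 39.8 CPM in WT and 52.6 to 55.2 CPM in MZsmad4a libraries (log2 fold change 0.56, edgeR adjusted p = 0.0425). The other wnt8a gene had a log2 fold change of 0.41. DESeq2 called 5 of the list lower and 1 higher, against 1.37% of all genes lower and 315 of 24983 higher. ved, a homeodomain repressor that with vox and vent keeps organizer genes such as gsc off the ventral side in zebrafish, had 227, 232 and 187 CPM in WT replicates 1, 2 and 3 and 36.0, 53.3 and 68.8 CPM in MZsmad4a replicates 1, 2 and 3. It fell by 2.03 on the log2 scale (standard error 0.22, edgeR adjusted p = 0.00475). This call was lost without WT replicate 1, without WT replicate 2 or without MZsmad4a replicate 2, with edgeR adjusted p of 0.0182, 0.0247 and 0.0286. vent had 88.0 ± 12.9 and 60.5 ± 4.52 CPM (log2 fold change -0.54, edgeR adjusted p = 0.0743), and vox 153 ± 20.3 and 127 ± 2.36 CPM (SD, n = 3; log2 fold change -0.27, edgeR adjusted p = 0.258), each without overlap. Thus ved, vent and vox had log2 fold changes of the same sign as noto and tbxta, the latter also a gene of the margin. Signs were mixed beyond these genes: 10 of the 15 organizer and axial genes were below 0, while others such as dkk1b (0.70) and lhx1a (0.65) were above it, as were the ventral wnt8a genes. szl, a BMP target encoding an inhibitor of Chordin cleavage, was at 23.4 to 34.3 CPM in WT and 0 to 0.263 CPM in MZsmad4a libraries, and eve1 and bmp4 each fell by 1.80. bmp4 also lost its call without MZsmad4a replicate 2 (edgeR adjusted p = 0.011).

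**Figure D4:**
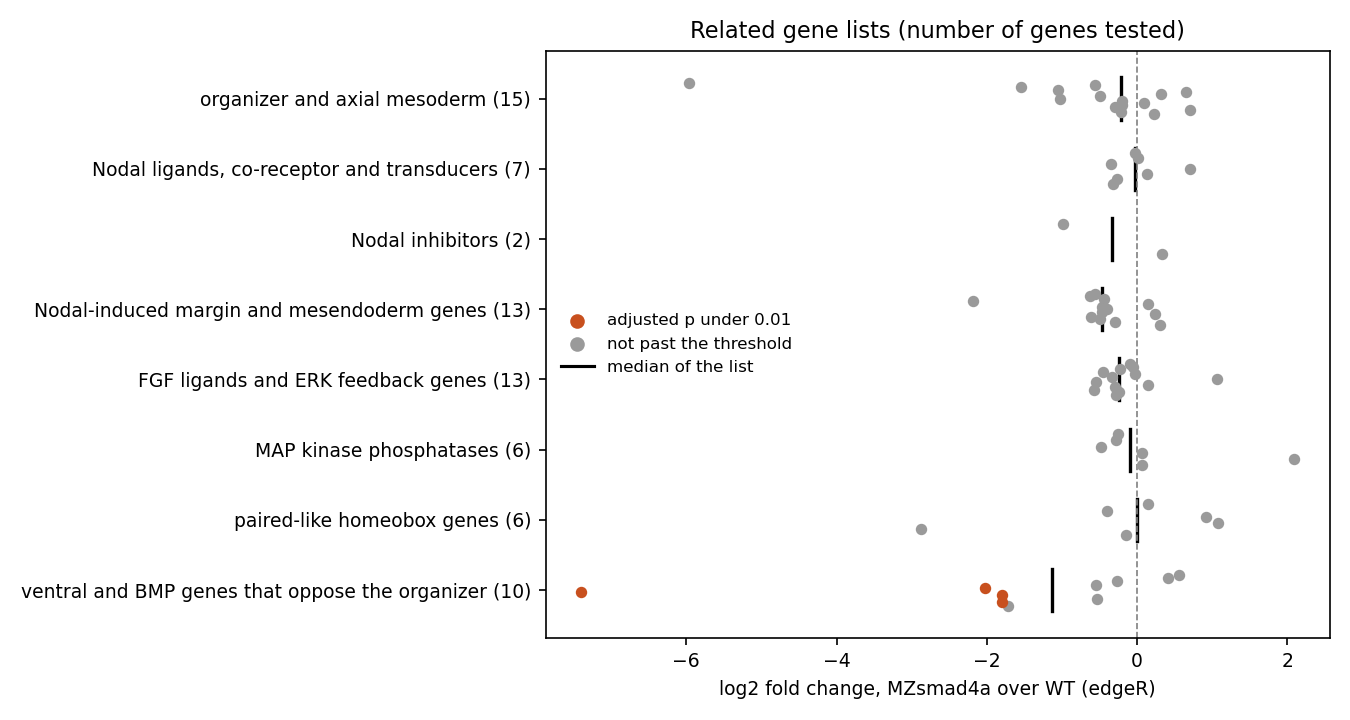
Log2 fold change of MZsmad4a over WT for the genes of 8 related lists (orange: adjusted p under 0.01 in edgeR, grey: not past it, black bar: median of the list), with the number of genes tested in brackets. The 4 orange points are szl, ved, bmp4 and eve1 of the ventral list, whose median is -1.13, while the medians of the organizer and Nodal-induced lists are -0.21 and -0.47.

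The genes most like each of the 4 across libraries were taken as the 5 with the highest Pearson correlation of log2 CPM over the 6 libraries, among 7463 other named genes with a mean of at least 10 CPM. With 6 libraries high coefficients are common, and 107 genes reached 0.9 with gsc, 88 with mixl1, 156 with noto and 65 with dusp4. Because the genes were chosen by correlation, a shared order of libraries, or a shared highest or lowest library, is likely from the choice alone. The genes most like noto were the FGF-induced ETS factor gene etv5b (r = 0.996), znf1070, tcf3b, zp2.2 and the Cdk inhibitor gene cdkn1ca (r = 0.982). etv5b was at 441 to 490.3 CPM in WT and 360.5 to 389.9 CPM in MZsmad4a libraries, with the libraries in the same order as for noto and a smaller log2 fold change of -0.30 (edgeR adjusted p = 0.0919). Of these genes zp2.2, of the multi-copy zona pellucida family, had an edgeR adjusted p of 0.00961 (log2 fold change -1.52), and leaving out any library raised it to between 0.0171 and 0.0395.

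For mixl1 the gene most alike was zpax1 (r = 0.994), which in RefSeq's GRCz12tu annotation is the next protein-coding gene to mixl1 on chromosome 20 and does not overlap it. The reads were counted on GRCz11 with Ensembl annotation, in which an overlap of these genes was not examined. zpax1 had 34.0, 42.6 and 37.1 CPM in WT replicates 1, 2 and 3 and 25.4, 34.0 and 36.5 CPM in MZsmad4a replicates 1, 2 and 3, a narrower range than that of mixl1 with the same highest and lowest libraries (log2 fold change -0.25, edgeR adjusted p = 0.521). The neighbor on the other side, lin9, had r = 0.0584 with mixl1 and 35.4 to 45.2 CPM. Whether reads were counted by strand, or could be shared between neighboring genes, is not given in the sources used here. The genes next most like mixl1 were NRIP1, ATP2A3, ZCCHC17 and gne (r from 0.976 to 0.988), none of them past the threshold.

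**Figure D5:**
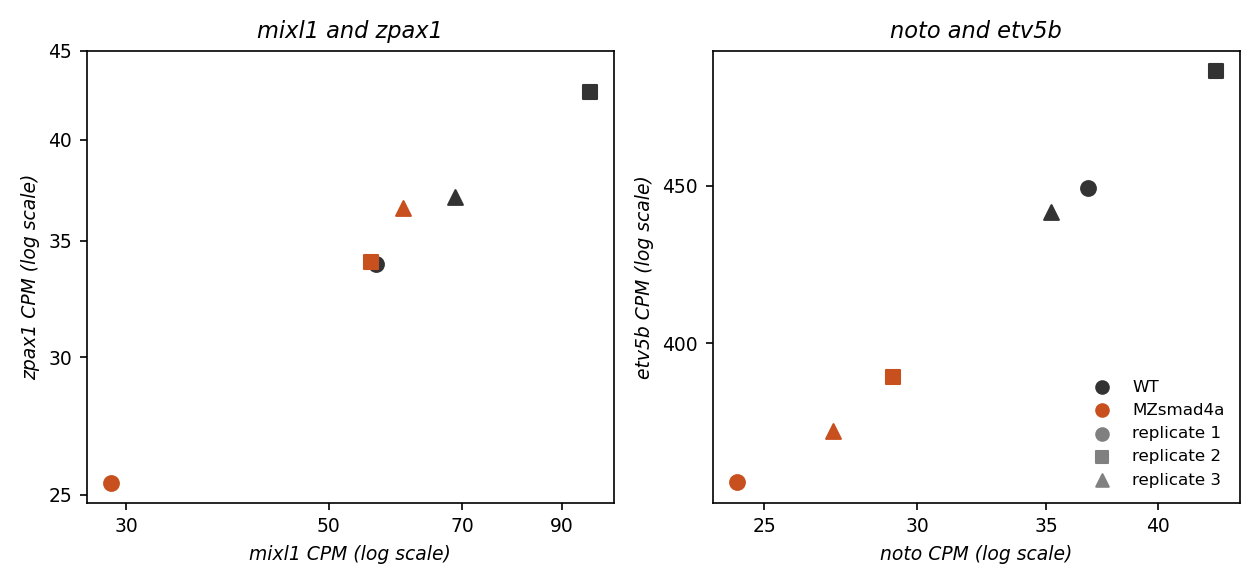
CPM of mixl1 against zpax1 (left) and of noto against etv5b (right), 1 point per library on log axes, black for WT and orange for MZsmad4a, with a marker shape for each replicate number. The pairs have r of 0.994 and 0.996. The genotypes overlap along the mixl1 axis on this scale, where WT replicate 1 lies between MZsmad4a replicates 2 and 3. Along the noto axis the genotypes are separate.

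The genes most like gsc included ssbp3b (r = 0.995), a cofactor of LIM-homeodomain complexes, the RNA helicase gene DDX21, FAM199X and znf451 (r = 0.984). Each of these had its lowest value in MZsmad4a replicate 1, as gsc did, which the choice by correlation with gsc made likely. The range could be narrow: ssbp3b was at 369 CPM in that library and at 403 to 412 CPM in the other 5. Those most like dusp4 were NPEPL1 (r = 0.986), NCKIPSD, the antizyme gene oaz1b, YIPF4 and the proliferation marker gene mki67 (r = 0.975). NPEPL1 was at 108, 162 and 118 CPM in WT replicates 1, 2 and 3 and at 104, 131 and 154 CPM in MZsmad4a replicates 1, 2 and 3, with the same highest and lowest library as dusp4 (log2 fold change 0.01). No gene named for gsc or dusp4 passed the threshold.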

How the data were processed

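RNA from pools of whole embryos was made into libraries with the KAPA mRNA HyperPrep kit and sequenced in paired ends. The authors demultiplexed with bcl2fastq 2.20.0 (submitters' processing notes), trimmed with cutadapt, aligned with STAR and quantified with RSEM on GRCz11 with Ensembl annotation. The deposited files give expected counts, TPM and FPKM per gene, of which the expected counts and TPM were used. The expected counts deposited for the 4 genes were whole numbers in every library. Counts were rounded, filtered (filterByExpr), scaled by TMM and tested with edgeR 4.0.16 (quasi-likelihood, Benjamini-Hochberg, threshold 0.01) in R 4.3.3, and CPM values are TMM-scaled. Log2 CPM used a prior count of 2. The self-test on simulated counts took its settings from the main fit and preceded the alternative fits. DESeq2 1.42.0, limma 3.58.1 on log2(TPM + 1), other scalings, other filters, the replicate number as a block and leaving out each library served as alternatives. Exact permutation tests and correlations used numpy 2.4.6, with ranks from scipy 1.17.1. The p-values of edgeR, DESeq2 and limma set the difference between genotypes against the variation between libraries. The exact p-values come from relabelling or re-pairing the 6 libraries. The genes, lists and tests were chosen with earlier results of these data known. Genes named from a list were those called, the 4 with the smallest p among the rest, and a set of named regulators. Named outside this rule, as genes with log2 fold changes above 0, were dkk1b, lhx1a and the other wnt8a gene. Symbols in capitals in the name table do not tell duplicated copies apart. A gene that the likeness rule names for gsc is not reported here. Promoter and protein sequences were not used here.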

Additional observations from a re-analysis of the deposited data

How the results depend on the processing

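The sign and side of the threshold of gsc, mixl1 and noto were kept under all 16 alternatives, and the exceptions for dusp4 were positive values without WT replicate 2 or MZsmad4a replicate 1. Leaving out each library in turn gave log2 fold changes of -0.57 to -0.09 for gsc, -0.81 to -0.35 for mixl1, -0.58 to -0.42 for noto and -0.29 to 0.21 for dusp4, and 24 to 71 genes past the threshold. The number past it was 112 (77 lower, 35 higher), 658 in DESeq2 (343 lower, 315 higher), 283 without a filter, 64 with at least 10 counts in every library, 461 at an adjusted p of 0.05, and 129 by library size alone (105 lower, 24 higher). The split was 90 lower and 25 higher in limma on log2(TPM + 1) and 94 and 24 on log2(TPM + 0.1).

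With the replicate number as a block, 29 genes passed (22 lower, 7 higher), edgeR adjusted p was 0.383 for gsc, 0.144 for mixl1 and 0.131 for noto, and the ventral list kept 3 of its 4 calls, without ved (edgeR adjusted p = 0.0218). Same-numbered libraries deviated together at r = 0.108, -0.032 and 0.140. The values for replicates 1 and 3 were the highest of all pairings of a WT with a mutant library, while WT replicate 2 correlated best with MZsmad4a replicate 3 (r = 0.0622). The study's supplement speaks of batches of WT and mutant embryos. Whether the numbers pair the libraries is thus not settled, and the main fit did not pair them.

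On log2(TPM + 1) the correlations of gsc with noto (r = 0.748) and of mixl1 with noto (r = 0.853) passed 0.05 (exact permutation, adjusted p = 0.0194 each). In TPM gsc, mixl1 and noto were all lower in MZsmad4a embryos without overlap. The permutation re-paired libraries across genotypes, so such a shared difference can by itself raise r and lower p. Without the 2 outermost libraries r turned to -0.205 (gsc and dusp4), -0.0772 (mixl1 and dusp4) and -0.914 (noto and dusp4). With each library left out (chosen after seeing the data for correlations), r of noto and dusp4 ran from -0.0695 to 0.743, the gsc to noto ratio difference from -0.17 to 0.35 and the mixl1 to noto difference from -0.34 to 0.095. The causes were not tested. With 3 libraries a genotype, no exact test of 3 against 3 can go below 0.1.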
